A study of Mus musculus with 4 samples.

Results

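The heat shock proteins and cytosolic chaperones described here were 39 genes, named by symbol and sorted into classes: heat shock factors, Hsp70 and Hsp110 proteins, small heat shock proteins, the mitochondrial chaperonin, Hsp90 and its co-chaperones, the Hsp40 proteins of classes A and B, a BAG protein and subunits of the cytosolic chaperonin CCT. A gene was measured if a probe set carried its symbol alone, which was the case for 37 of the 39, among 18193 genes named on the array. The genes were covered by 96 of the 45037 probe sets tested, and each gene was followed through the probe set with the highest mean over the arrays. No probe set carried the symbol Hsf1 or Hsp90ab1 alone, so the main heat shock factor and the constitutive cytosolic Hsp90 were not analysed here.

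RNA came from 2 clones, C1 and E1, of primary mammary epithelial cells taken from a Deaf-1-null female mouse, or from several, at 8 weeks of age and immortalised with a retrovirus that encodes the E6 and E7 proteins of a human papilloma virus. Each clone was infected either with the empty retrovirus (control) or with a retrovirus that encodes Deaf-1, a DNA-binding transcription factor, and was selected in puromycin for 48 hours. Each of the 4 combinations was hybridised to 1 Affymetrix mouse array, so that every array shares the Deaf-1-null background, the immortalisation and the puromycin selection. Each clone is a single isolate, the sources differ on whether it had 1 donor mouse or more, and p-values measure only the spread between these arrays.

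Chaperones bind unfolded proteins and help them to fold, to reassemble or to be degraded. Hsp70 proteins work in cycles of ATP binding and hydrolysis in which Hsp40 proteins deliver the substrate and Hsp110 and BAG proteins release the nucleotide, while Hsp90 acts later on kinases and receptors and the chaperonins enclose whole proteins such as actin and tubulin. Under stress the heat shock factor HSF1 binds heat shock elements, arrays of the unit NGAAN in alternating orientation, and raises transcription of the inducible members.

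Values are log2 expression made by RMA, in which a difference of 1 is a doubling. Deaf1 checked the labels: it read 5.01 with the control and 6.73 with the Deaf-1 retrovirus in clone C1, and 4.91 and 6.25 in clone E1. Array medians ran from 3.77 to 3.87, and 49.2% to 50.8% of probe sets on each array exceeded the background level of 3.83, the 95th percentile of 44 olfactory receptor probe sets. The correlation across probe sets was 0.994 and 0.992 between arrays of a clone and 0.976 to 0.983 between clones. Epithelial identity was only partly visible. By the mean over the arrays, Krt8, Krt18, Cdh1, Cldn4, Cldn7, Krt14, Krt17 and Myh11 were below background, though Krt8 exceeded it on both E1 arrays (3.84 and 4.01). Epcam, Krt19, Krt5, Trp63 and Acta2 were above background. Krt19, Krt5 and Trp63 had means of 4.52, 4.56 and 4.04, near those of the endothelial Kdr (4.21) and the leukocyte Cd3e (4.43) and Laptm5 (4.72). In all, 2 of 4 endothelial and 2 of 5 leukocyte markers were above background, so passing it does not by itself show a cell type. All 7 fibroblast markers measured were above background (Col3a1, a fibrillar collagen, had a mean of 13.49). The summed level of the luminal list (log2 of the summed linear values) was 6.95 to 7.16 in C1 and 6.90 to 7.12 in E1. That of the basal list was 11.78 to 11.86 and 11.50 to 11.55, almost all through Acta2 (mean 11.64), with Krt5 next at 4.56. That of the fibroblast list was 14.89 to 14.94 and 14.99 to 15.08. The summed adipocyte list was 4.34 to 4.74 in C1 and 10.57 to 10.60 in E1, through Fabp4, with Adipoq and Cidec below background, and the fibroblast marker Lum was lower in E1 (difference -2.82). The part of these marker differences in the chaperone results was not tested.

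Nearly all chaperone genes were expressed: 35 of the 37 had a mean above background. The exceptions were Hsf2, a second heat shock factor, and Hspa1l, an Hsp70 known mainly from testis. Hsf2 read 2.64 and 2.76 in C1 and 2.74 and 2.69 in E1, giving the control array first and the Deaf-1 array second, as in all such sentences that follow, and its clones overlapped. Hspa8, the constitutive cytosolic Hsp70, was near the top of the scale on every array, at 12.66 and 12.50 in C1 and 12.66 and 12.65 in E1. The means of the CCT subunits and of the mitochondrial chaperonin lay between 10.19 and 11.04. These levels belong to different probe sets and give no order of RNA amounts between genes.

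**Figure D1:**
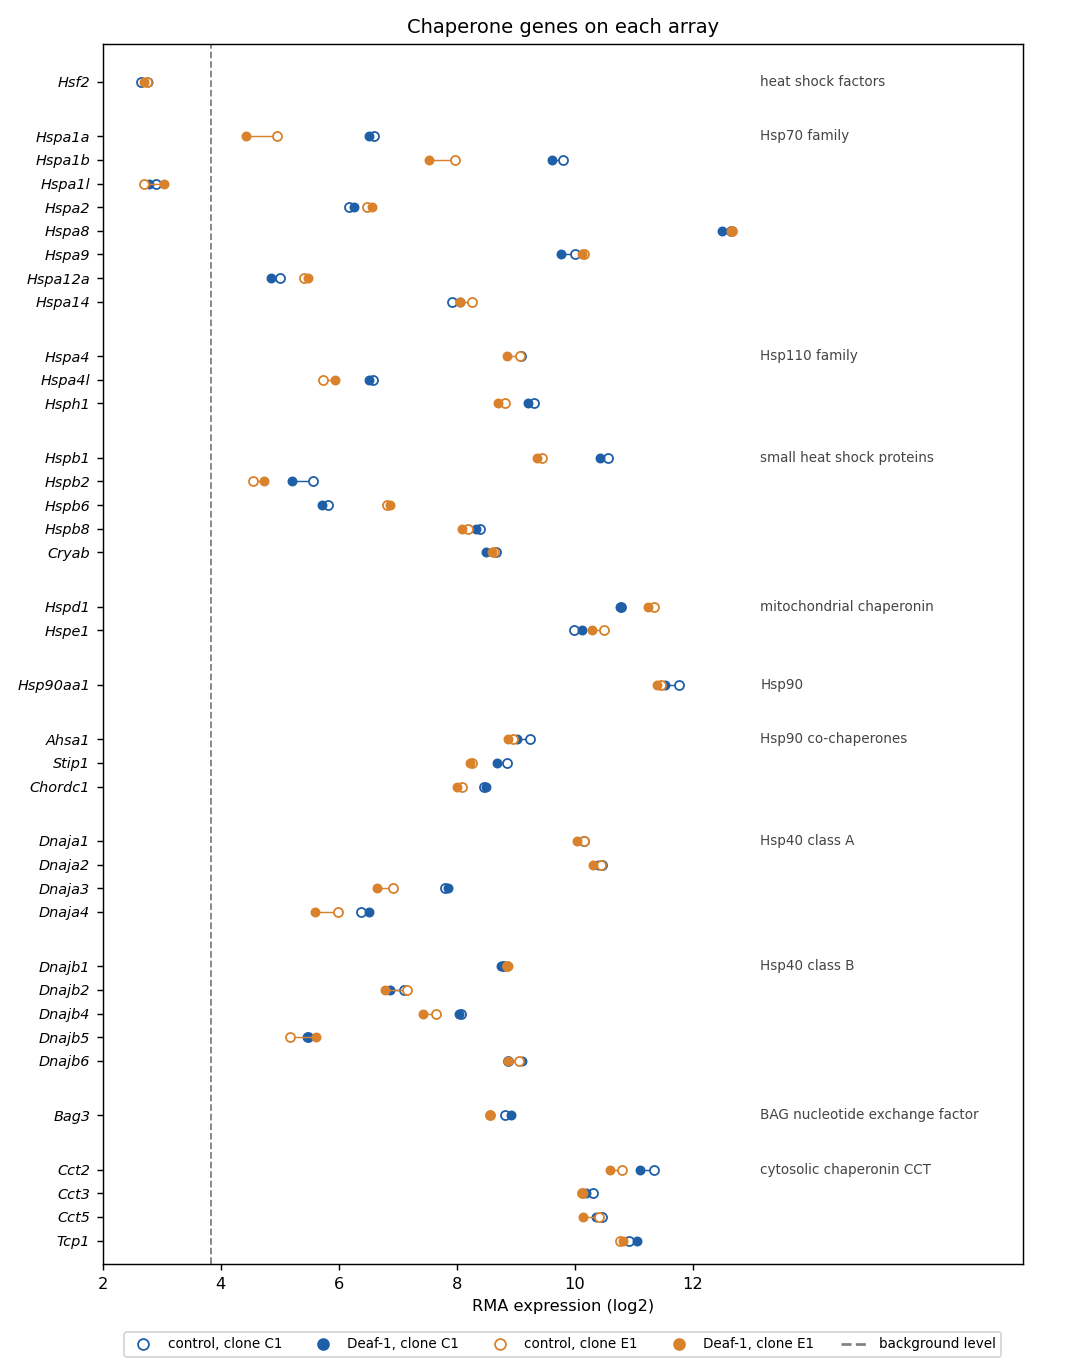
Log2 expression (horizontal axis) of the 37 measured chaperone genes, grouped by class, with 1 point per array: open for control, filled for Deaf-1, blue for clone C1 and orange for clone E1, and a line joining the arrays of a clone. Hsf2 and Hspa1l lie left of the dashed background level of 3.83. Hspa1a, Hspa1b, Hspb1, Dnaja3 and Hspa4l lie lower in E1 than in C1, Hspb6 lies higher, and the retroviruses of a clone lie close together.

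Promoter sequences are shown for Hspa1a, Hspa1b and Hspb1, among the members whose RNA differed between the clones, and for Hspe1, whose promoter is shared. Heat shock elements are the known site of common regulation of the inducible members. RefSeq promoter windows of build GRCm38.p6, 250 bases before to 50 after a transcript start, were found for 32 of the 39 genes. The 150 bases before the start are printed below, read 5′ to 3′ along the gene, with heat shock elements of at least 2 units (GAANNTTC or TTCNNGAA, each the same on both strands) in capitals. They are Hspa1a at chr17:34972157-34972306 (minus strand), Hspa1b at chr17:34959239-34959388 (minus strand), Hspb1 at chr5:135887769-135887918 (plus strand) and Hspe1 at chr1:55087998-55088147 (plus strand).
Hspa1a: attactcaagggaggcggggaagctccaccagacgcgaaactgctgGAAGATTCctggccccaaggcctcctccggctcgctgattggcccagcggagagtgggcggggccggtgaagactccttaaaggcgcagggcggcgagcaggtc
Hspa1b: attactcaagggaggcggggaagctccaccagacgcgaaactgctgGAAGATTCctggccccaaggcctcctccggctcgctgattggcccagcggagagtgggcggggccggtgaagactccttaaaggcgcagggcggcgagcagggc
Hspb1: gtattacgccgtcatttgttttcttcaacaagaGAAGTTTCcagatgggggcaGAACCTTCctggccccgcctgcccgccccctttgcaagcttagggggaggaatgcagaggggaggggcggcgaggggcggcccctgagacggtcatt
Hspe1: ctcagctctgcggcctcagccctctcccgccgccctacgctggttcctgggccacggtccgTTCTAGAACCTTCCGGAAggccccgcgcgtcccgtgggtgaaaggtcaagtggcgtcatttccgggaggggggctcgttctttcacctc

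Hspa1a and Hspa1b, neighbours on chromosome 17 that encode the inducible Hsp70, had nearly the same promoter, with 296 of 300 window bases identical (98.7%), and each had 1 two-unit element that began 104 bases before the start. Hspb1, the small heat shock protein Hsp27, had 2, which began 117 and 97 bases before the start. The windows of Hspa4l and Dnaja3, which were also lower in E1 (below), held no two-unit element. Hspb6, which was higher in E1, had 1 in a single window. Hspe1 and Hspd1 encode the Hsp10 and Hsp60 of the mitochondrial chaperonin and lie side by side on chromosome 1 in opposite orientation. The stretch printed for Hspe1 holds overlapping elements that together span 18 bases and begin 89 bases before its start, and the same 18 bases fall in a window of Hspd1.

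Two-unit elements were found in 16 of the 32 member genes with a window (50%), against 15.1% of all 32851 windows and 17% of all 27025 genes. A three-unit element is GAANNTTCNNGAA or, on the other strand, TTCNNGAANNTTC, which contains both shorter forms. It was present for 5 of the 32, namely Hsph1, Hspd1, Hspe1, Chordc1 and Dnajb6, against 0.603% of windows and 0.662% of genes. Hspd1 and Hspe1 are counted separately here though their elements are the same bases. TTCG, the core bound by Deaf-1, was present on either strand (TTCG or CGAA) for 23 of the 32 genes, against 44.7% of windows and 47.7% of genes. Of the 9 windowed genes lower in E1 at an unadjusted p under 0.01 (below), 6 had a two-unit element, as did 10 of the other 23. The 6 include both Hspa1a and Hspa1b, whose promoters are nearly the same, so these counts are not of independent sequences. A match is a run of letters only, and binding was not measured.

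The clones differed in the inducible Hsp70 genes, in 2 small heat shock proteins and in 2 co-chaperones of Hsp70. Compared by limma with the retroviruses of a clone as its replicate arrays, 6 of the 37 genes passed an adjusted p under 0.05, 5 lower in E1 (Hspa1a, Hspa1b, Hspa4l, Hspb1 and Dnaja3) and 1 higher (Hspb6). Over the array 5.12% of probe sets passed, 2.64% lower and 2.48% higher, and 10.1% of genes above background with 1 probe set each. At an unadjusted p under 0.01, 10 genes were lower and 3 higher, where 9.65% of probe sets (5.27% lower and 4.38% higher) and 18.1% of genes above background passed. The array values of E1 and C1 did not overlap for 27 genes, 19 lower in E1 and 8 higher, where 60.3% of probe sets above background did not overlap, 32.9% lower and 27.4% higher. The median difference (E1 minus C1) was -0.12 over the 37 genes, 0.016 over all named genes and -0.015 over those above background. In E1 25 of the 37 had a lower mean, as did 6083 of the 11730 named genes above background. Fewer cells of a type that expresses a gene and less RNA per cell cannot be told apart in these arrays.

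With retrovirus as a block 0 of the 37 genes passed an adjusted p under 0.05, where 0.109% of probe sets passed, and the lowest adjusted p in limma was 0.0610, that of Hspa1b. At an unadjusted p under 0.01 the block left 5 lower and 1 higher, the 6 genes named above, where 5.38% of probe sets passed. Leaving out any 1 array, control or Deaf-1 of C1 or of E1, left 0 of all 45037 probe sets at an adjusted p under 0.05, so these fits could call no chaperone gene. At an unadjusted p under 0.01, where 1.47% to 3.97% of probe sets were lower and 1.65% to 2.71% higher, Hspa1a, Hspa1b, Hspb1 and Dnaja3 stayed lower and Hspb6 higher in all 4 such fits.

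**Figure D2:**
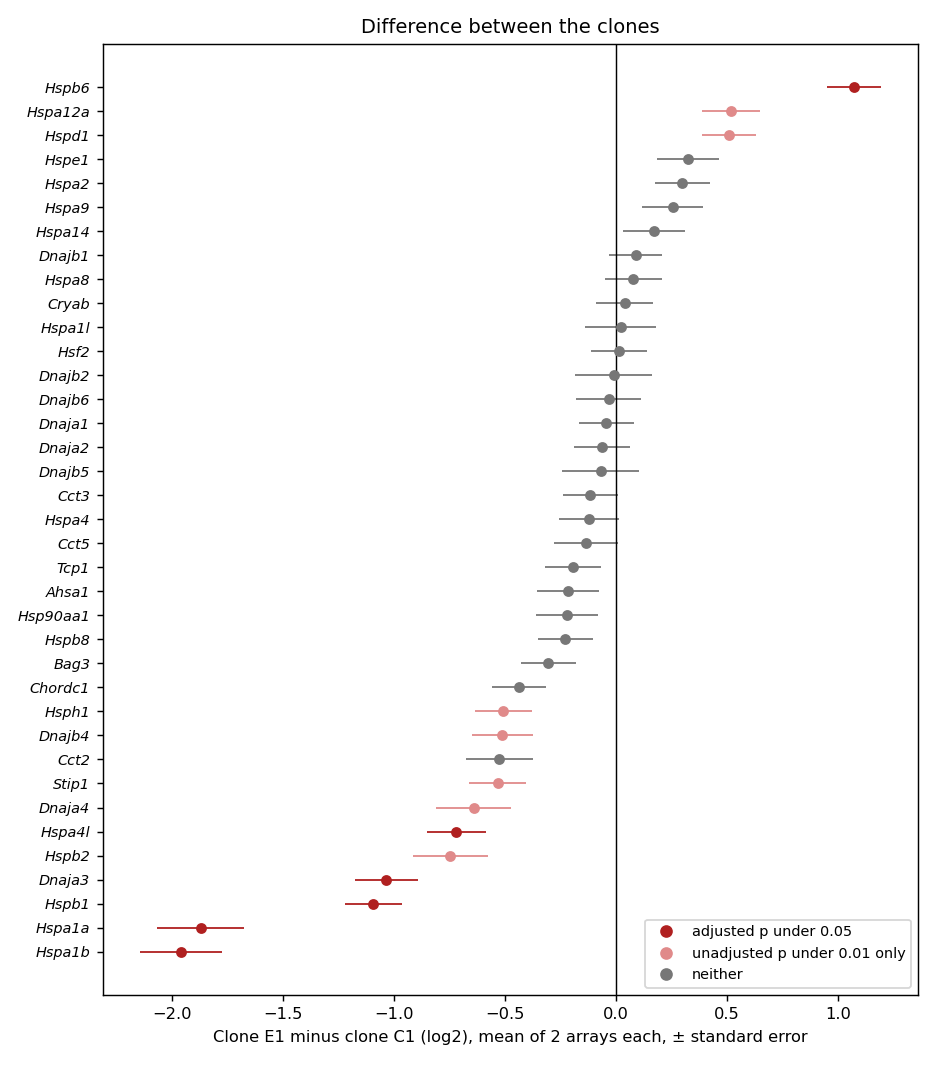
Difference between the clones (E1 minus C1, log2, horizontal axis) for each of the 37 genes, ordered by its size, with the limma standard error as bars. Dark red marks an adjusted p under 0.05, pale red an unadjusted p under 0.01 only and grey neither. The lowest points are Hspa1b at -1.96 and Hspa1a at -1.87, and the highest is Hspb6 at 1.07.

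Among the Hsp70 genes the inducible pair had lower means in E1, and the other 6 had higher ones by the probe set used. Hspa1b read 9.80 and 9.62 in C1 and 7.98 and 7.53 in E1. Both E1 arrays were below both C1 arrays, with means of 9.71 ± 0.13 (SD, n = 2 arrays) and 7.75 ± 0.32 (SD, n = 2). The difference of -1.96 (standard error 0.18) was 3.88-fold, with an adjusted p of 0.00815 in limma.
Hspa1a read 6.59 and 6.51 in C1 and 4.95 and 4.42 in E1, and again the clones did not overlap. Its difference was -1.87 (standard error 0.20), or 3.65-fold, with an adjusted p of 0.0106. The 3 probe sets of Hspa1b ran from -2.06 to -1.96. The transcripts of the pair are nearly identical, so a probe set named for one gene may also read the other.

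The other Hsp70 genes did not follow them. Hspa8 was higher in E1 by 0.08 (standard error 0.13; adjusted p = 0.83), with overlapping clones, and Hspa9, the mitochondrial Hsp70, by 0.26 (adjusted p = 0.40). A dimmer probe set of Hspa8 gave -0.50 (unadjusted p = 0.0394, adjusted p = 0.22) and one of Hspa14 gave -0.23 (adjusted p = 0.47), both without overlap of the clones. Hspa12a, a distant relative of Hsp70, read 5.01 and 4.84 in C1 and 5.41 and 5.48 in E1, a difference of 0.52 with an unadjusted p of 0.00763 and an adjusted p of 0.0895. Hspa2, Hspa14 and Hspa1l differed by 0.30, 0.17 and 0.02.

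The Hsp110 proteins are large relatives of Hsp70 that act as its nucleotide exchange factors, and all 3 had lower means in E1. Hspa4l read 6.57 and 6.52 in C1 and 5.72 and 5.93 in E1, without overlap. Its difference was -0.72 (standard error 0.13), or 1.64-fold, with an adjusted p of 0.0437. After cyclic loess and after further quantile normalization the adjusted p was 0.0516 and 0.0615, so the call was lost. Its second probe set above background gave -1.12 (adjusted p = 0.0298). Hsph1 read 9.31 and 9.21 in C1 and 8.82 and 8.70 in E1, a difference of -0.51 with an adjusted p of 0.0893. Hspa4 differed by -0.12 (adjusted p = 0.72).

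Small heat shock proteins, which hold unfolded proteins without using ATP, differed in both directions. Hspb1 read 10.56 and 10.43 in C1 and 9.45 and 9.36 in E1. The E1 arrays were the lower ones, by 1.09 in the mean (difference -1.09, standard error 0.13, 2.13-fold, adjusted p = 0.0142), and the other probe set also gave -1.09. Hspb6, the small heat shock protein Hsp20 known from muscle, went the other way, with 5.81 and 5.72 in C1 and 6.81 and 6.86 in E1. Its difference of 1.07 (standard error 0.12) was 2.10-fold, with an adjusted p of 0.0132.
Hspb2 read 5.55 and 5.20 in C1 and 4.54 and 4.73 in E1, a difference of -0.74 with an unadjusted p of 0.00460 and an adjusted p of 0.0682. Its neighbour on chromosome 9, the αB-crystallin gene Cryab, read 8.66 and 8.50 in C1 and 8.63 and 8.60 in E1 and overlapped between the clones. Hspb8, the partner of Bag3, differed by -0.23 (adjusted p = 0.40).

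**Figure D3:**
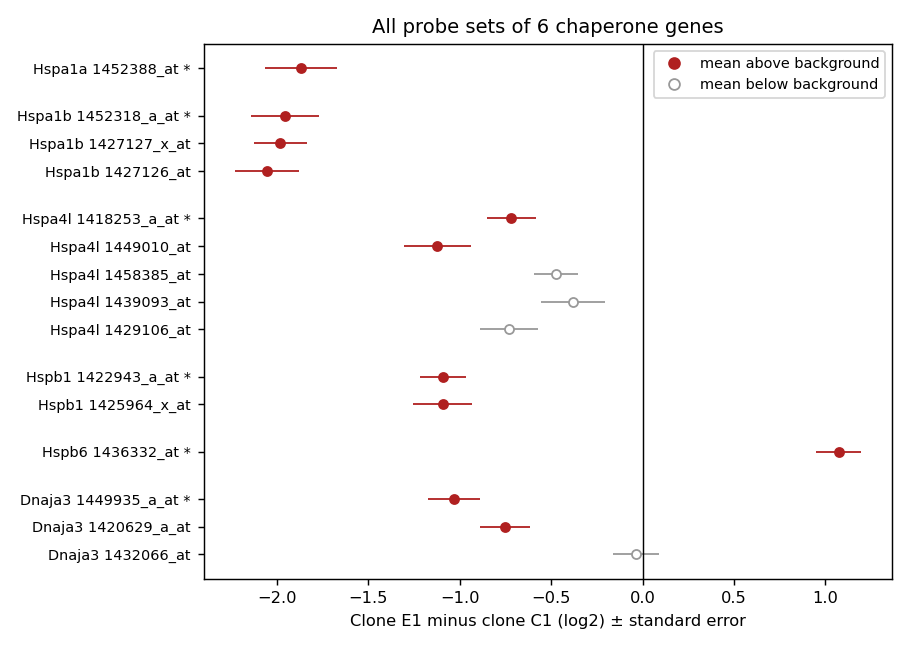
Difference between the clones (E1 minus C1, log2, horizontal axis, with limma standard errors) for every probe set of the 6 genes with an adjusted p under 0.05. Stars mark the probe set used for the gene, and open grey points have a mean below background. All probe sets above background of each gene lie on the same side of 0, with Hspa1b between -2.06 and -1.96 and Hspb6 on the right.

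Of the Hsp40 proteins, which carry substrates to Hsp70, Dnaja3 had the largest difference. Dnaja3, a mitochondrial Hsp40, read 7.80 and 7.85 in C1 and 6.92 and 6.66 in E1. The clones did not overlap, and the difference was -1.03 (standard error 0.14), or 2.05-fold, with an adjusted p of 0.0211. A second probe set gave -0.75 (adjusted p = 0.0402).
Dnaja4 read 6.37 and 6.51 in C1 and 5.99 and 5.60 in E1 (difference -0.64, unadjusted p = 0.00963, adjusted p = 0.10). Dnajb4 read 8.06 and 8.03 in C1 and 7.65 and 7.43 in E1 (difference -0.51, unadjusted p = 0.00984, adjusted p = 0.10). Dnajb1, the chief cytosolic Hsp40 partner of Hsp70 and itself heat-inducible, read 8.79 and 8.75 in C1 and 8.85 and 8.87 in E1, a difference of 0.09 with an adjusted p of 0.78. Its second probe set gave -0.07.
Dnaja1, Dnaja2, Dnajb2, Dnajb5 and Dnajb6 differed by -0.07 to -0.01, and their clones overlapped. For 3 of them the value depends on the probe set. The other probe sets of Dnaja1 gave differences of -0.56 and -0.44 against -0.04 for the one used. A second probe set of Dnaja2 gave -0.55 without overlap of the clones (unadjusted p = 0.00760, adjusted p = 0.0893), and the probe sets of Dnajb6 ran from -0.47 to 0.15.

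Bag3, a nucleotide exchange factor that leads Hsp70 clients to autophagy, read 8.81 and 8.92 in C1 and 8.56 and 8.56 in E1, a difference of -0.30 with an adjusted p of 0.25. Hsp90aa1, the inducible Hsp90, read 11.77 and 11.53 in C1 and 11.47 and 11.40 in E1 (difference -0.22, adjusted p = 0.48). The E1 arrays of both genes were the lower ones without overlap. Stip1, which links Hsp70 to Hsp90, read 8.86 and 8.69 in C1 and 8.25 and 8.23 in E1, a difference of -0.53 with an unadjusted p of 0.00656 and an adjusted p of 0.0827. Chordc1, a co-chaperone of Hsp90, and Ahsa1, which activates the ATPase of Hsp90, differed by -0.44 (adjusted p = 0.12) and -0.22 (adjusted p = 0.48).

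Both subunits of the mitochondrial chaperonin had higher means in E1, and neither passed the adjusted threshold. Hspd1 read 10.79 and 10.77 in C1 and 11.34 and 11.24 in E1, a difference of 0.51 with an unadjusted p of 0.00628 and an adjusted p of 0.0804. Hspe1 differed by 0.33 (adjusted p = 0.27), and its second probe set by 0.42. The 4 subunits of CCT had lower means in E1 by the probe set used, led by Cct2. Cct2 read 11.35 and 11.11 in C1 and 10.81 and 10.61 in E1 (difference -0.52, adjusted p = 0.12). Cct3, Cct5 and Tcp1 differed by -0.12, -0.13 and -0.19, and 0 of the 4 passed an unadjusted p under 0.01. For Cct3 the sign depends on the probe set: of 5 above background, 3 were lower and 2 higher in E1, from -0.15 to 0.18.

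The question the study asked was which genes follow the return of Deaf-1, and no chaperone gene passed in the fits used here. These are not the study's own fit: for Deaf1 the unadjusted p in limma was 0.00123 here, larger than the study printed. The study also listed genes lower with Deaf-1 at a p under 0.01, where the fit here with the clones as replicates called 0 lower. At an unadjusted p under 0.01, the threshold of the study, 0 of the 37 genes passed in limma with the clones as replicates, where 0.0111% of probe sets did. At an unadjusted p under 0.05 it was also 0, where 0.433% passed, and a fit that blocked on clone gave 0 at both thresholds (0.0244% and 0.875% of probe sets). Mean changes over the clones ran from -0.32 (Hspa1b) to 0.21 (Dnajb5), and the adjusted p was 1 for every gene. Over the array 0 of 45037 probe sets passed an adjusted p under 0.05 in limma, with or without the block. Deaf1 itself did not pass, so that threshold could call no chaperone gene. Changes within a clone ran from -0.36 to 0.23 in C1 and from -0.52 to 0.44 in E1.

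**Figure D4:**
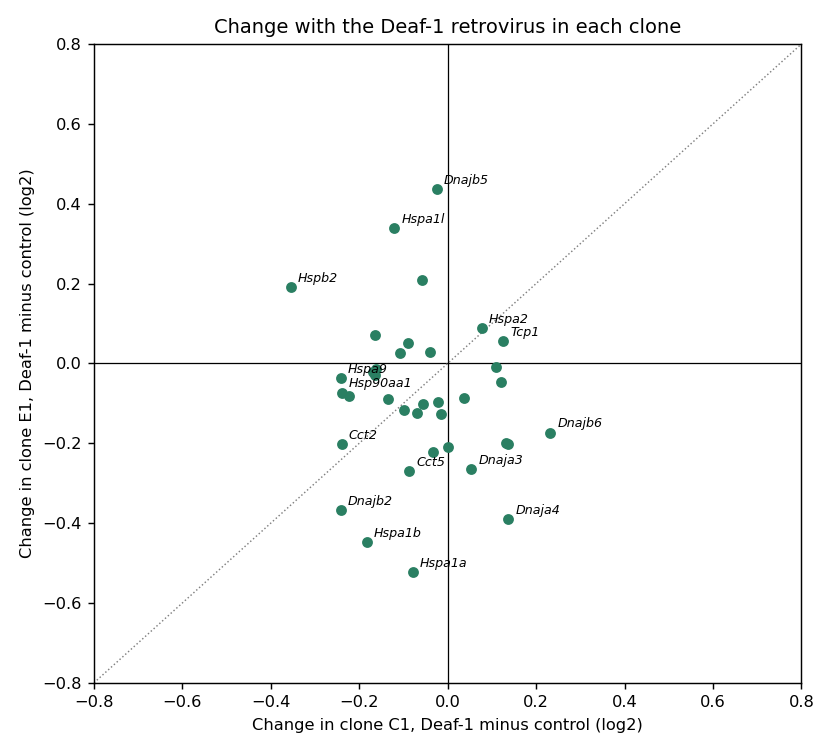
Change with the Deaf-1 retrovirus (difference of Deaf-1 and control arrays, log2) in clone C1 (horizontal axis) and clone E1 (vertical axis) for the 37 chaperone genes, 1 point per gene, with the dotted line marking equal change. Of the points, 18 lie at the lower left, where both clones were lower with Deaf-1, and 2 in the upper right, Hspa2 and Tcp1. Dnajb2 lies lower in both clones, by more than 0.20.

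The signs of the single-array differences were mostly negative where the clones shared a sign, though no gene passed a test. Of the 37, 18 were lower in both clones, 2 were higher in both and 17 moved in opposite directions, whereas of the named genes above background 21.4% were lower in both and 14.8% higher in both. After cyclic loess the split was 14 lower and 4 higher, where 18% of named genes above background were lower in both and 20.8% higher. After a further quantile normalization it was 13 and 3, where 18.8% were lower in both and 19.6% higher. The median change was -0.07 in C1 and -0.09 in E1, against 0.03 and -0.07 for named genes above background. After cyclic loess it was -0.08 in C1 and -0.02 in E1, against 0.017 and -0.0036. After further quantile normalization it was -0.09 and -0.03, against -0.0066 and 0.012. Control and Deaf-1 arrays did not overlap for 6 genes, each lower with Deaf-1 (Hspa8, Cryab, Dnaja1, Dnaja2, Dnajb2 and Cct5), where 12.1% of probe sets above background did not overlap and 6.97% were lower with Deaf-1.

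Dnajb2, an Hsp40 with ubiquitin-interacting motifs known from neurons, had the largest absolute moderated t of the members. It read 7.10 and 6.86 in C1 and 7.15 and 6.79 in E1, so both Deaf-1 arrays were below both controls. Its means were 7.13 ± 0.037 (SD, n = 2 clones) in control and 6.82 ± 0.052 (SD, n = 2) in Deaf-1 cells. The change of -0.30 (standard error 0.14) had an unadjusted p of 0.0925 and an adjusted p of 1 in limma.
Among the chaperonin subunits Cct5 read 10.46 and 10.37 in C1 and 10.41 and 10.14 in E1, a mean change of -0.18 with an unadjusted p of 0.32. Of the class A Hsp40 proteins Dnaja2 read 10.47 and 10.40 in C1 and 10.44 and 10.31 in E1, a change of -0.10 with an unadjusted p of 0.53. Ahsa1 read 9.24 and 9.01 in C1 and 8.95 and 8.87 in E1, with a change of -0.15 (unadjusted p = 0.43).

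The inducible Hsp70 pair was lower with Deaf-1 in both clones, but by less than it differed between them. Hspa1b changed by -0.18 in C1 and -0.45 in E1, and Hspa1a by -0.08 and -0.52. The means of Hspa1b, 8.89 ± 1.29 (SD, n = 2) with the control and 8.57 ± 1.48 (SD, n = 2) with the Deaf-1 retrovirus, carry the spread between clones, and the unadjusted p was 0.75 for each gene. In the fit that blocked on clone, Hspa1b had a moderated t of -2.02 and Hspa1a one of -1.68, and neither passed an unadjusted p under 0.05.
Hspa8 changed by -0.16 in C1 and -0.01 in E1, Hsp90aa1 by -0.24 and -0.07, and Hspb1 by -0.13 and -0.09. Hspa9 read 10.01 and 9.77 in C1 and 10.17 and 10.13 in E1, with a mean change of -0.14. Hspa4 read 9.09 and 9.09 in C1 and 9.07 and 8.86 in E1, so that C1 changed by 0.0015 and E1 by -0.21. Dnajb1 and Bag3 moved in opposite directions in the clones, by -0.04 and 0.03 and by 0.11 and -0.01.

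A wider list of 56 genes of the chaperone network held the other CCT subunits, prefoldin, further co-chaperones of Hsp70 and Hsp90, and mitochondrial chaperones and proteases. It also held other heat shock factor genes, such as Hsf4 (mean 6.16, above background), and genes that respond to HSF1. Of the 56 genes 51 were measured, 50 of them above background. Of these, 0 of 51 passed an unadjusted p under 0.01, or under 0.05, for Deaf-1 against control in limma. The largest absolute moderated t were those of Afg3l2, a subunit of a mitochondrial protease (change -0.23), Pfdn2, a subunit of prefoldin (-0.25), and Trap1, the mitochondrial Hsp90 (0.20). Between the clones 3 were higher in E1 (Bag2, Hsf4 and Hmox1) and 2 lower (Hspb7 and Dnajb12) at an adjusted p under 0.05, 5 of 51 where 10.1% of genes above background passed, and the median difference was 0.017. With retrovirus as a block 0 of the 51 passed, and the adjusted p of the 5 genes just named ran from 0.0929 to 0.19 in limma. The 3 with the largest absolute moderated t are given as values. Hspb7, a small heat shock protein of the heart, had means of 6.15 ± 0.21 (SD, n = 2 arrays) in C1 and 4.35 ± 0.25 (SD, n = 2) in E1, a difference of -1.80 with an adjusted p of 0.00943. Hmox1, the stress-inducible heme oxygenase, was higher in E1 by 1.10 (adjusted p = 0.0124), and Dnajb12, an Hsp40 of the endoplasmic reticulum membrane, was lower by 0.91 in the mean (difference -0.91, adjusted p = 0.0212).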

How the data were processed

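Each of the 4 samples, Deaf-1 and control retrovirus in clones C1 and E1, was measured on 1 Affymetrix mouse genome array. The authors deposited log2 values per probe set made with RMA (background correction, quantile normalization and summary), per the submitters' processing notes, which also name limma. Versions are not given in the sources used here. Of 45101 probe sets, 64 AFFX controls were left out. Of the 45037 tested, 34945 had 1 gene symbol in the platform annotation, 932 had several and 9160 had none. The members and lists were chosen with earlier results of these data known.

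Groups were compared in R 4.3.3 by moderated statistics of limma 3.58.1 (lmFit, then eBayes with neither trend nor robust prior). Tests were two-sided, and p-values were adjusted by Benjamini-Hochberg over all 45037 probe sets. Clones were the replicates for Deaf-1 against control, as in the study, and the retroviruses for E1 against C1. The fits have 2 residual degrees of freedom, or 1 with a block. Sample titles give the clone only by a first letter, c or e, read here as C1 and E1, and Puro was read as the empty retrovirus. Deviations of same-clone arrays from their group means correlated at 0.54, so the clone pairs the arrays. A difference between clones in the change with Deaf-1 has no residual degree of freedom and was not tested. The number of arrays limits the precision. The procedure was tested on simulated data with known changes. For Deaf-1 against control these held no difference between clones, unlike the arrays, so they do not represent that fit.

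Values on every array are given for members under an unadjusted p of 0.01 with or without the block, for the member of each class with the largest absolute moderated t, and for heat shock factors, Hspa1a, Hspa1b, Hspa8, Hsp90aa1, Hspb1, Dnajb1 and Bag3. From the network list the 3 genes with the largest absolute moderated t in each comparison are named. Alternatives tried were a block, arrays left out one at a time, a filter at background, cyclic loess, further quantile normalization, median centring, an intensity trend, probe sets without _x_at or _s_at names and a background at the 90th percentile. Promoter sequences are from RefSeq (GRCm38.p6).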

Additional observations from a re-analysis of the deposited data

Results flagged for a closer look

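The change with Deaf-1 had opposite signs in the clones for 17 of the 37 chaperone genes. For 2 of them the changes lay more than 0.5 apart on the log2 scale. The share of all genes with so large a gap was not computed. Hspb2 changed by -0.36 in C1 and 0.19 in E1, a gap of -0.55 (C1 minus E1). Dnaja4 changed by 0.14 in C1 and -0.39 in E1, a gap of 0.53. Each change rests on 1 array per retrovirus, and the difference between the clones was not tested. Of named genes above background with 1 probe set each, 22.7% were lower in C1 and higher in E1 and 40.5% the reverse. Over all named genes it was 30% and 30.9%, and these shares count gaps of any size.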

How the results depend on the processing

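For E1 against C1, the retrovirus block left 5 lower and 1 higher at an unadjusted p under 0.01, and 0 in either direction at an adjusted p under 0.05, of the 10, 3, 5 and 1 without it. With each array left out in turn these counts were 4 to 5 lower and 1 to 1 higher at the unadjusted threshold, and 0 to 0 at the adjusted one in both directions, where no probe set of the array passed. In these fits 1 clone has a single array, assumed to vary like the other. At an adjusted p under 0.05, an intensity trend gave 10 lower and 2 higher (4.66% and 4.02% of probe sets), keeping only probe sets above background gave 6 lower and 2 higher (7.63% and 6.6%), and cyclic loess and further quantile normalization gave 4 lower each, without Hspa4l. For Deaf-1 against control, 0 genes passed either threshold in the fits run, namely the block, the filter, the normalizations, the trend, the other choice of probe sets and each array left out. The clone block changed no call there, and 0 of 45037 probe sets passed the adjusted threshold with or without it. The genes higher in both clones numbered 4 after cyclic loess and 1 after median centring, against 2.

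Near-zero values changed sign. Dnajb1 (Deaf-1 minus control) was 0.033 after cyclic loess and 0.019 after further quantile normalization. Hsf2 (E1 minus C1) was -0.0022, -0.0063 and -0.0087 after cyclic loess, further quantile normalization and median centring. Fits for Deaf-1 with 1 array left out mix the clones unequally. They ran from -1.35 to 0.74 for Hspa1a, -1.36 to 0.73 for Hspa1b, -0.67 to 0.44 for Hspb1, -0.32 to 0.040 for Hspa9, -0.33 to 0.21 for Hspd1, -0.067 to 0.056 for Dnajb1, -0.13 to 0.23 for Bag3, -0.011 to 0.086 for Hsf2 and -0.22 to 0.0087 for Hspa4. Between the clones they ran from -0.0029 to 0.16 for Hspa8 and -0.047 to 0.074 for Hsf2. The cause of these changes was not tested.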
